A study of Homo sapiens with 2 samples.

Results

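The glycosyltransferases of glycan branching and capping build and finish the sugar chains of glycoproteins and glycolipids in the Golgi. The members were taken by name: every protein-coding gene of GENCODE release 29 whose symbol begins with ST3GAL, ST6GAL, ST8SIA, FUT, MGAT, B3GNT, B3GALT, B4GALT, GALNT or GCNT and goes on with a digit, or with NAC and a digit. The rule gave 84 members of the 58735 genes in each table, and used no measured value. They were profiled by RNA sequencing in BT549 cells, a line of triple-negative breast cancer that has mesenchymal features, in a study whose title concerns SIK2, LRP6 and breast cancer stemness. Both cultures had received the ligand Wnt3a, 2 h of it. A control short hairpin RNA was carried by the scrambled group and a hairpin against SIK2, a salt-inducible kinase, by the shSIK2 group, each group holding 1 library. The sources used here do not say whether either culture was a clone or a pool of cells, or how long the hairpin had been present.

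Glycans are made stepwise, each enzyme adding 1 sugar to the product of another. GALNT enzymes attach the first N-acetylgalactosamine of mucin-type O-glycans to serine or threonine, and GCNT enzymes branch those chains. MGAT enzymes add the N-acetylglucosamine antennae of N-glycans, B3GNT and B4GALT enzymes lengthen antennae with N-acetylglucosamine and galactose, and B3GALT enzymes make other galactose linkages, among them one in the stem of proteoglycan chains. Sialyltransferases (ST3GAL, ST6GAL, ST6GALNAC and ST8SIA) and fucosyltransferases (FUT) cap or decorate the ends. Altered branching and sialylation of surface proteins are well-known features of breast and other carcinomas.

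Values are FPKM as deposited, in effect reads per kilobase of exon times a constant that both libraries shared. Recovered reads summed to 18019225 for the scrambled library and 16347399 for the shSIK2 library. SIK2, the target of the hairpin, stood at 7.80 FPKM in the scrambled and 3.56 in the shSIK2 library, from 1312 and 599 reads. All 6 markers of BT549 that were checked (VIM, ZEB1, FN1, CD44, AXL and CAV1) were present, at 9.82 to 283 FPKM. None of the 18 markers of luminal epithelium, leukocytes, endothelium or mucin-secreting epithelium reached 1 FPKM in either library. With 1 library per group there is no replicate check on any difference, and none is tested. Each fold is a ratio of recovered reads, given with its exact (Clopper-Pearson) 95% interval, and intervals and bounds cover counting error only. The deposited values are not scaled to each library's total, and scaling to equal totals would raise every ratio of shSIK2 over scrambled by a factor of 1.10, or 0.14 on the log2 scale. In bulk RNA, fewer cells making a transcript and less of it per cell cannot be told apart.

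The sialyltransferases together stood higher in the shSIK2 library, and the other families, added together, were close to level. The summed FPKM of the 20 sialyltransferases was 64.0 in the scrambled library against 126.7 in the other, or 1.98-fold. Without ST6GALNAC4, the most abundant of them, the sums were 33.1 and 55.2, or 1.67-fold. Without ST6GALNAC4 and ST8SIA2 they were 29.5 and 41.9, or 1.42-fold. The sialyltransferases were grouped with earlier results of these data known, and their families were not of 1 direction. The ST6GAL sum was lower in the shSIK2 library (5.59 and 4.12 FPKM), and the ST3GAL, ST6GALNAC and ST8SIA sums were higher. The remaining 64 members summed to 354.9 and 367.2 FPKM, a 1.03-fold difference. The total of these 64 members also joined families of unlike direction. The sums of GALNT, MGAT (50.7 and 74.4 FPKM), B3GNT and FUT were higher in the shSIK2 library. Those of GCNT, B4GALT (160.1 and 138.1 FPKM) and B3GALT were lower. Scaling to equal totals would raise each of these ratios by the same factor of 1.10. These sums include every member, whatever its level, so no minimum shapes them.

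Of the 84 members, 40 reached 1 FPKM in 1 or both libraries and are called measured. Among them 9 were 2-fold or more higher under shSIK2 and 3 were 2-fold or more lower, on log2 ratios of FPKM plus 0.1. Over all 10666 measured protein-coding genes 8.41% were 2-fold higher and 6.64% 2-fold lower. The shares for the members were 22.5% and 7.5%. The median log2 ratio was 0.08 for measured members and -0.14 for measured protein-coding genes. The minimum bears on these counts: 7 members reached 1 FPKM only in the shSIK2 library, 4 of them 2-fold higher, and 2 only in the scrambled library, 1 of them 2-fold lower. With a minimum on the mean of both libraries, 5 of 34 members were 2-fold higher and 2 lower, beside 7.22% and 6.40% of protein-coding genes filtered the same way. At equal totals 10 were 2-fold higher and 2 lower, against 10.6% and 4.43% of protein-coding genes. At equal totals 6 measured members with ratios close to 1 (GALNT10, GALNT11, GALNT14, B3GNT2, B3GNT5 and B4GALT4) lay on the other side of equality. Over all 84 members, 41 had more reads in the shSIK2 library, 31 had fewer and 12 had none in either. Of all protein-coding genes 7025 had more reads in the shSIK2 library and 7904 fewer.

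**Figure D1:**
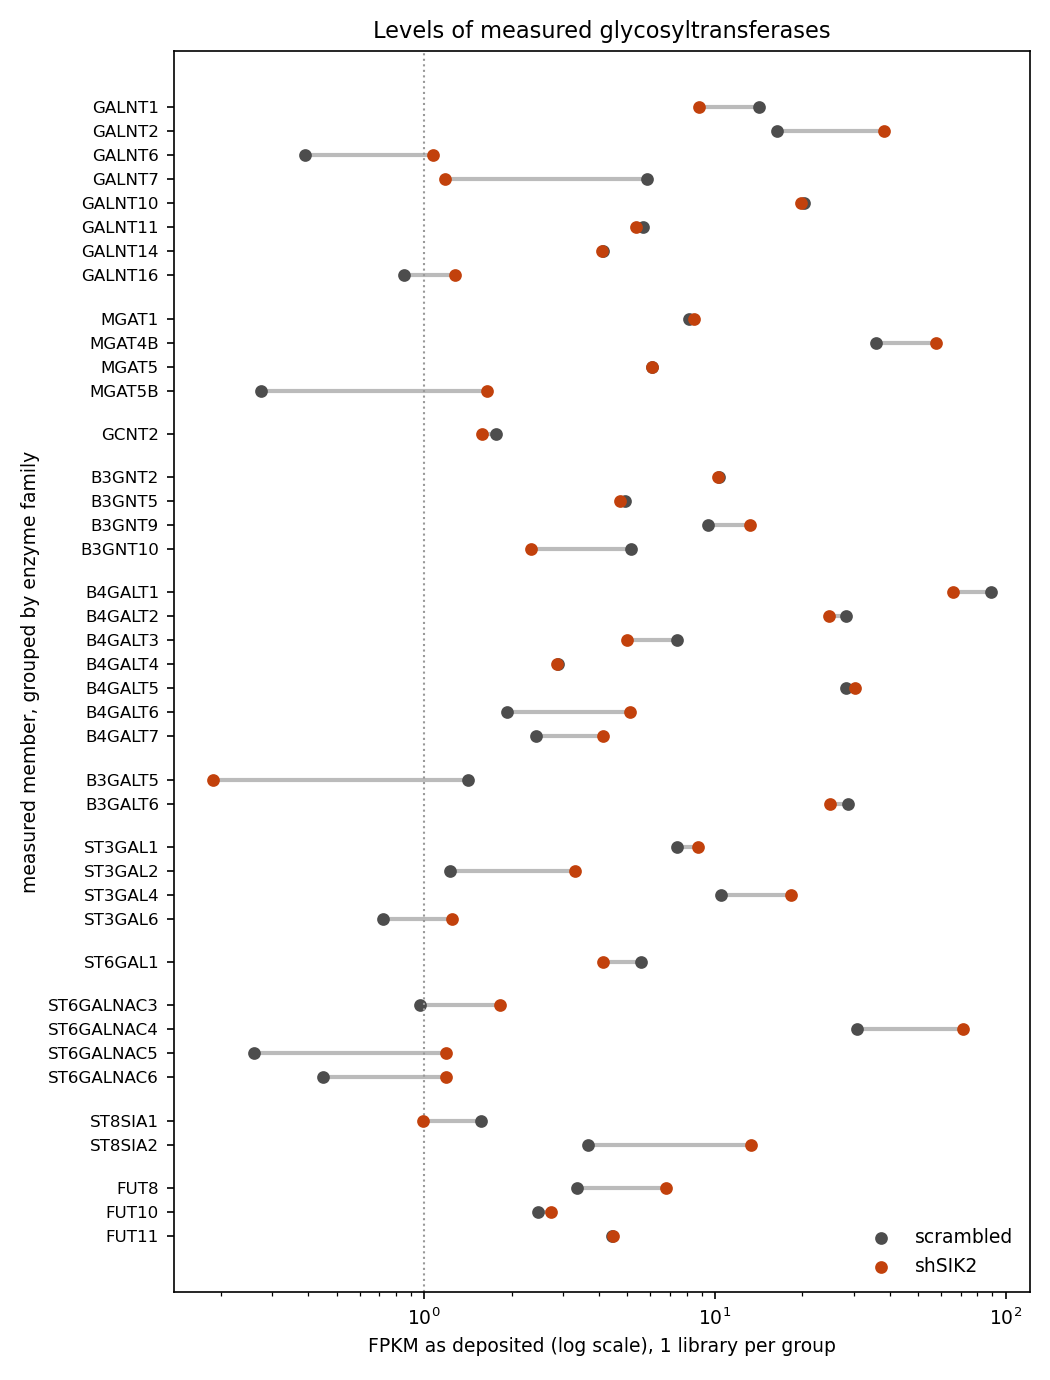
FPKM as deposited (horizontal log axis) of the 40 measured members, grouped by family, with 1 point for the scrambled and 1 for the shSIK2 library and a dotted line at 1 FPKM. All measured ST3GAL and ST6GALNAC members lie farther right in the shSIK2 library, while the GALNT, B3GNT and B4GALT families hold members on both sides. ST3GAL6, ST6GALNAC3, ST6GALNAC5 and ST6GALNAC6 reached 1 FPKM only in the shSIK2 library, so the minimum fixed their side.

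**Figure D2:**
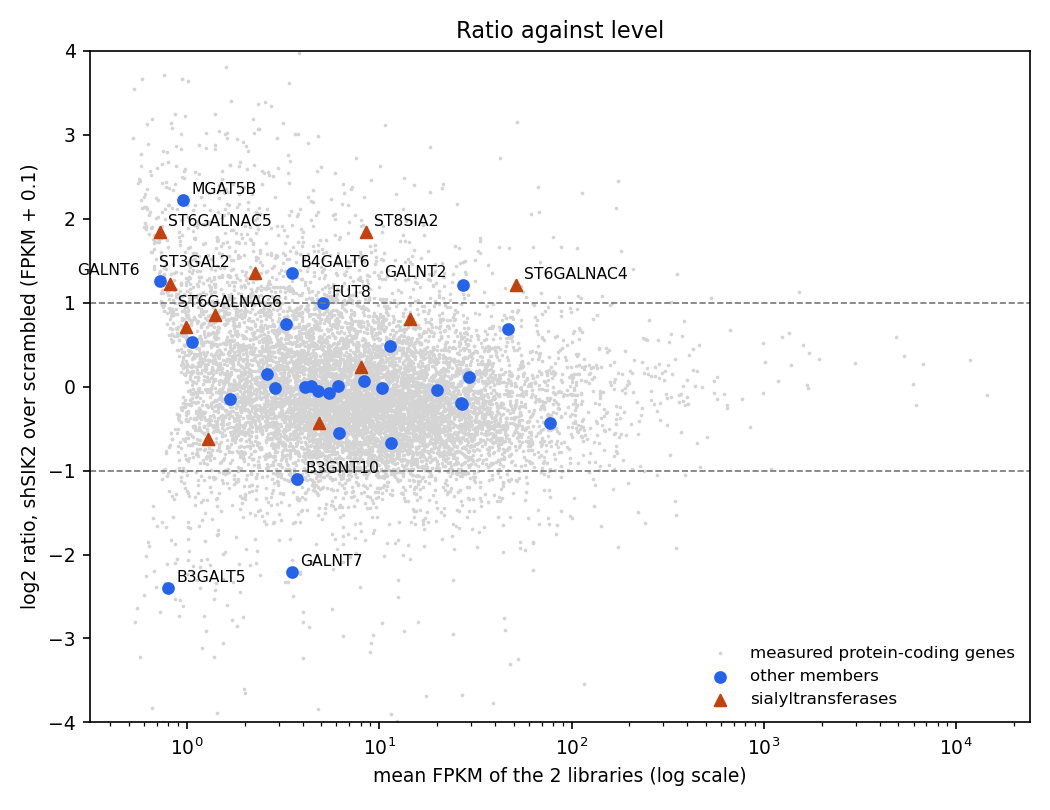
Log2 ratio of shSIK2 over scrambled (vertical axis, FPKM plus 0.1) against mean FPKM of the libraries (log axis) for measured protein-coding genes, with measured members drawn as blue circles or, for sialyltransferases, orange triangles; 23 other genes lie beyond the plotted range. Of the 12 members past the dashed 2-fold lines, ST6GALNAC4 and GALNT2 have the highest mean levels.

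The O-GalNAc initiating family had a different leading member in each library. GALNT2, a broadly expressed initiating enzyme (ENSG00000143641, GRCh38 chromosome 1, 230057990 to 230282124), stood at 16.4 FPKM in the scrambled and 38.1 in the shSIK2 library. From 2179 and 5060 reads, it was 2.32-fold higher (2.21 to 2.44). GALNT7, which acts on peptides that already carry a GalNAc (ENSG00000109586, chromosome 4, 173168753 to 173323967), went the other way, with 5.83 FPKM without and 1.18 with the SIK2 hairpin. Its 687 and 139 reads gave a 4.94-fold lower value (4.11 to 5.97), at or below which lay 0.797% of measured protein-coding genes. GALNT10, another enzyme that prefers GalNAc-bearing peptides, stood at 20.3 and 19.7 FPKM (1.03-fold lower, 0.98 to 1.08). GALNT1, a second broadly expressed initiator, was at 14.2 and 8.83 FPKM, 1.61-fold lower (1.47 to 1.76).

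As a share of the family's summed FPKM, GALNT2 went from 23.8% in the scrambled library to 47.3% in the shSIK2 library. GALNT10 held 29.4% and 24.5%, GALNT1 20.5% and 11.0%, and GALNT7 8.45% and 1.47%. The family's sum was 69.0 FPKM in the scrambled and 80.4 in the shSIK2 library (1.17-fold higher, 1.13 to 1.20), and 52.6 and 42.3 without GALNT2. The direction of the sum thus rested on 1 member. GALNT6, which is known from breast tumours, had 49 and 135 reads (2.76-fold higher, 1.97 to 3.90) and was at 0.389 and 1.07 FPKM. GALNT11, GALNT14 and GALNT16 were at 5.65, 4.11 and 0.852 FPKM in the scrambled library and 5.37, 4.10 and 1.28 in the shSIK2 library, none past 2-fold. GALNT6 and GALNT16 reached 1 FPKM only in the shSIK2 library, so the minimum fixed their direction. With a pseudocount of 1 GALNT6 was not past 2-fold.

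The promoters of 3 GALNT members with unlike ratios, and of ST6GALNAC4, the most abundant member past 2-fold, are shown because their members differ in direction while their proximal sequences share 1 feature, the GC box. Each run is the 250 bases before the RefSeq start site on GRCh38.p14, written 5′ to 3′ on the gene's strand. Capitals mark the GC box GGGCGG or its reverse complement. The windows are chr1:230066988-230067237 (plus strand) for GALNT2, chr4:173168561-173168810 (plus) for GALNT7, chr5:154190483-154190732 (plus) for GALNT10 and chr9:127917042-127917291 (minus) for ST6GALNAC4. The RefSeq start of GALNT2 lies 9.25 kb inside the GENCODE gene, and the others lie within 58 bases of the GENCODE start.
GALNT2: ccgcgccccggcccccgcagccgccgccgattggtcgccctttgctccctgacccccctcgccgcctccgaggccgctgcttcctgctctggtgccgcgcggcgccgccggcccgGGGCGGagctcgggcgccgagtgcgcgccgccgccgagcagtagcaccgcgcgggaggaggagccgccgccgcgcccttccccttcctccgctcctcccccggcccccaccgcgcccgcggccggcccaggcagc
GALNT7: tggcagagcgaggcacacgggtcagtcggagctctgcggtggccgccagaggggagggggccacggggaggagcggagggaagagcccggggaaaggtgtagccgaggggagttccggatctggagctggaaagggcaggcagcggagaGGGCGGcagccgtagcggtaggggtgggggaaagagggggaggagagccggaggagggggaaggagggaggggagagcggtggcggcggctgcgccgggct
GALNT10: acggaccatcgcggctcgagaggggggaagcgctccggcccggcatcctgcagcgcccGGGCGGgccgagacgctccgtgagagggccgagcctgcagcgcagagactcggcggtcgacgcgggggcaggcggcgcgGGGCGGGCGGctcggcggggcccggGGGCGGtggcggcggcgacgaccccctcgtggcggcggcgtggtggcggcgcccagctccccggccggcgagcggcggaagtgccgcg
ST6GALNAC4: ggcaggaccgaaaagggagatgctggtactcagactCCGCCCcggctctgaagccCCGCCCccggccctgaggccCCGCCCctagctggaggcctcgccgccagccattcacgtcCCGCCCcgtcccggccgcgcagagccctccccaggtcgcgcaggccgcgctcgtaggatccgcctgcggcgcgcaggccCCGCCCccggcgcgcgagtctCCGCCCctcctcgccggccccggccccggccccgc

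The window of GALNT2 (82.8% GC) held 1 GC box, that of GALNT7 (72.4% GC) 1, that of GALNT10 (82.4% GC) 4 and that of ST6GALNAC4 (79.2% GC) 6. Thus the higher, the lower and the level GALNT gene all carried the motif. RefSeq held 103 start sites for 60 of the 84 members, 31 of them measured. Both strands were searched for 4 motifs that do not contain one another: the GC box GGGCGG bound by SP1-type factors, the E-box CACGTG, the cyclic AMP response element TGACGTCA and the TCF/LEF motif CTTTGAT. The GC box was in 59 of the 103 member promoters (57.3%) and 42.6% of all 35116 promoters. Median GC content was 65.2% for member promoters and 58% for all promoters, and these shares were not matched for it. The GC box was in 5 of 7 promoters of members 2-fold higher (5 genes), 2 of 3 of those 2-fold lower (2 genes), 28 of 48 of those between and 24 of 45 of those below 1 FPKM. The E-box was in 7 of the 103 member promoters (6.8%) and 6.34% of all promoters. The cyclic AMP element was in 2 member promoters, against 1.65% of all, and the TCF/LEF motif in 3, against 2.26%, and those 5 matches all lay in promoters of members below 1 FPKM. A match describes letters in the window and is not a bound site.

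N-glycan branching was carried by MGAT4B in both libraries. MGAT4B, which adds an antenna to 1 arm of the N-glycan core (ENSG00000161013, chromosome 5, 179797597 to 179806952), stood at 35.8 FPKM in the scrambled and 57.6 in the shSIK2 library, 1.61-fold higher (1.54 to 1.68). It made up 70.6% and 77.4% of the family's FPKM. MGAT1, the enzyme that opens the path to hybrid and complex N-glycans, stood level at 8.14 and 8.50 FPKM (1.04-fold, 0.97 to 1.12). MGAT5, which adds the branch best known in metastasis, stood at 6.06 and 6.10 FPKM (0.92 to 1.11 for the fold). The family's sum was 50.7 and 74.4 FPKM (1.47-fold higher, 1.42 to 1.52), and 14.9 and 16.8 without MGAT4B.

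MGAT5B, the relative of MGAT5 that branches O-mannose glycans in brain, had the highest ratio of the measured members. It had 30 reads in the scrambled and 180 in the shSIK2 library (6.0-fold higher, 4.06 to 9.15), or 0.274 and 1.64 FPKM. It reached 1 FPKM only in the shSIK2 library, so the minimum fixed its direction. MGAT3, which adds the bisecting sugar, had 1 and 12 reads, and MGAT4A, the second enzyme of the MGAT4B reaction, 34 and 50. MGAT2, which follows MGAT1 in the same pathway, had 4 and 2 reads. Of its exon length 91.9% is shared with an antisense transcript on the opposite strand, so its level is uncertain where the counting set such reads aside, and the sources used here do not say how reads were counted.

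Chain extension by B3GNT enzymes kept its sum, at 29.99 FPKM in the scrambled and 30.8 in the shSIK2 library (1.03-fold, 0.96 to 1.10). B3GNT2, the main enzyme of poly-N-acetyllactosamine, stood at 10.4 and 10.3 FPKM (1.0-fold, 0.89 to 1.14). B3GNT5, which starts lacto-series glycolipids, stood at 4.90 and 4.71 FPKM (1.04-fold lower, 0.93 to 1.16). The other measured members differed in direction: B3GNT9 stood at 9.45 and 13.2 FPKM (1.40-fold higher, 1.24 to 1.58), and B3GNT10 at 5.14 and 2.34 FPKM (2.20-fold lower, 1.73 to 2.81). B3GNT10 shares 16.1% of its exon length with FBXW2 on the opposite strand, which also had fewer reads, and its log2 ratio of -1.10 became -0.97 at equal totals. GCNT2, the enzyme of I-antigen branching, was the 1 measured member of the O-glycan branching family, at 1.77 and 1.59 FPKM (1.11-fold lower, 0.93 to 1.33). GCNT1, the core 2 branching enzyme, had 35 and 32 reads.

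Galactosylation was led by B4GALT1, the main enzyme of N-acetyllactosamine and the most abundant member in the scrambled library. B4GALT1 (ENSG00000086062, chromosome 9, 33104082 to 33167356) stood at 89.0 and 65.9 FPKM, 1.35-fold lower (1.30 to 1.40). The median log2 ratio of the 10 measured protein-coding genes on each side of it was -0.46, close to its own -0.43. B4GALT6, which with B4GALT5 makes lactosylceramide, the base of most glycolipids (ENSG00000118276, chromosome 18, 31622247 to 31685836), had 176 and 464 reads. At 1.93 and 5.10 FPKM it was 2.64-fold higher (2.21 to 3.15). B4GALT5 stood at 28.2 and 30.4 FPKM (1.08-fold higher, 1.02 to 1.14), so it remained the more abundant of the pair.

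B4GALT2 and B4GALT3 were at 28.3 and 7.38 FPKM in the scrambled library and 24.7 and 5.0 in the shSIK2 library. B4GALT4 was level at 2.88 and 2.85 FPKM. B4GALT7 and B3GALT6 add the pair of galactoses in the proteoglycan linker, and they differed in direction. B4GALT7 stood at 2.42 and 4.12 FPKM (1.70-fold higher, 1.42 to 2.03), and B3GALT6 at 28.7 and 24.9 FPKM (1.15-fold lower, 1.07 to 1.25). B3GALT5, which makes type 1 chains (ENSG00000183778, chromosome 21, 39556442 to 39673137), had the lowest ratio of the measured members. Its 347 reads in the scrambled and 46 in the shSIK2 library made it 7.54-fold lower (5.53 to 10.5), at 1.41 and 0.187 FPKM. B3GALT5 reached 1 FPKM only in the scrambled library, so the minimum fixed its direction. With a minimum on the mean of both libraries it was no longer counted. B3GALT4, a ganglioside enzyme below 1 FPKM, had 14 and 35 reads.

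**Figure D3:**
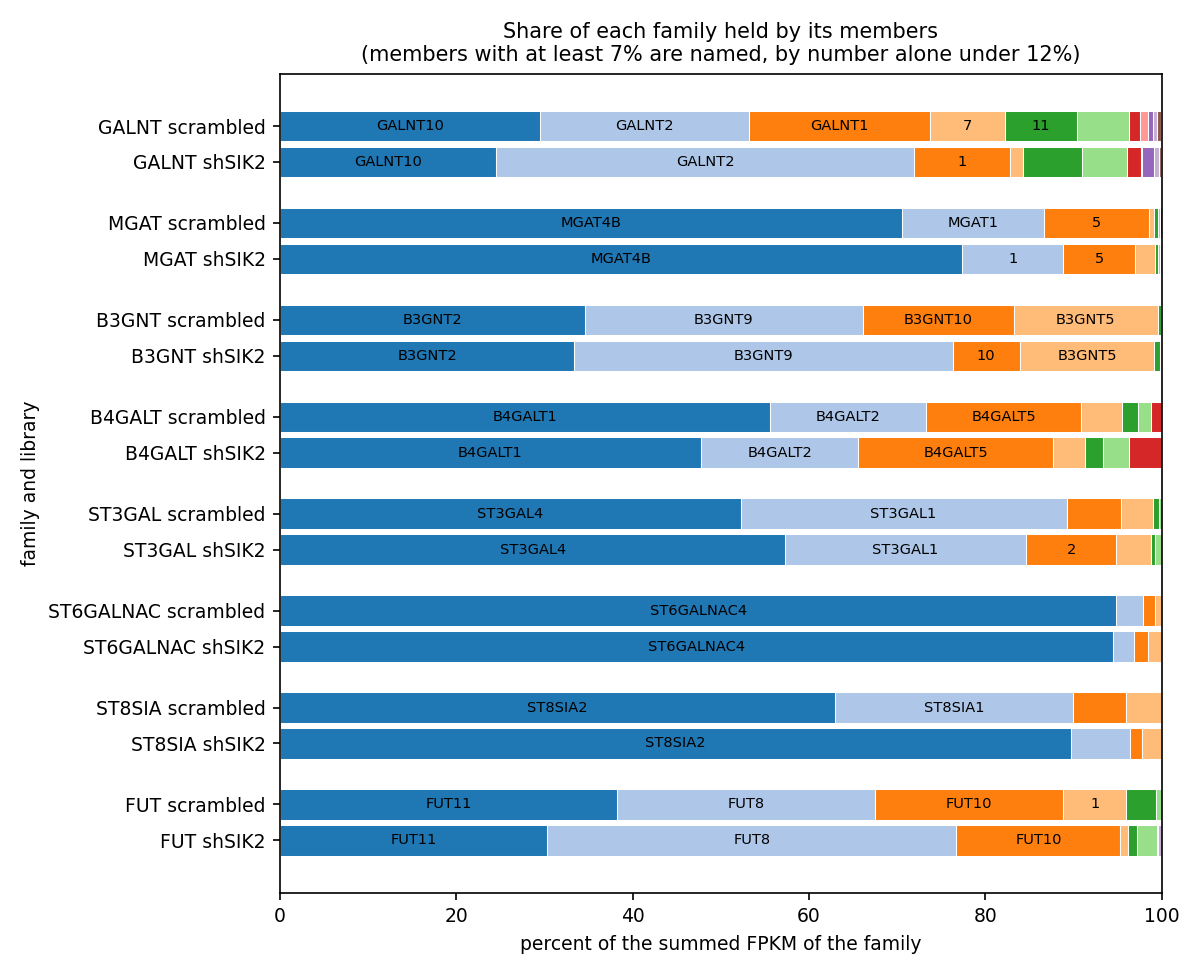
Share of the summed FPKM of 8 families (horizontal axis, percent) held by each member, with 1 bar for the scrambled and 1 for the shSIK2 library of each family; colours tell neighbouring members of a family apart and carry no meaning between families. GALNT2 widens from 23.8% to 47.3%, ST8SIA2 from 62.9% to 89.7% and FUT8 from 29.2% to 46.4%, while ST6GALNAC4 holds 94.9% and 94.4%.

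Of the 20 sialyltransferases 11 were measured, with 5 past 2-fold higher under shSIK2, 0 past 2-fold lower and 6 between, beside 8.41% and 6.64% of measured protein-coding genes. The minimum bears on this count too, since 4 of the 11 reached 1 FPKM only in the shSIK2 library, among them 2 of the 5. ST8SIA1 reached it only in the scrambled library. With a minimum on the mean of both libraries 3 of 8 were past 2-fold higher, beside 7.22% of protein-coding genes filtered the same way. With a pseudocount of 1 the count was 2 of 11, and no background share was computed for that setting. All 4 measured ST3GAL members, which cap galactose, had higher values in the shSIK2 library. ST3GAL6 reached 1 FPKM only there, which fixed its direction, and ST3GAL3, below the minimum, had 51 and 48 reads. ST3GAL4 (ENSG00000110080, chromosome 11, 126355640 to 126440344), a main enzyme of sialylated lactosamine on glycoproteins, stood at 10.5 and 18.3 FPKM, 1.75-fold higher (1.61 to 1.91). ST3GAL1, which caps core 1 O-glycans, stood at 7.40 and 8.73 FPKM (1.18-fold higher, 1.09 to 1.28). ST3GAL2, which acts on core 1 glycans and gangliosides, stood at 1.23 and 3.29 FPKM, 2.67-fold higher (2.28 to 3.15). ST3GAL6 stood at 0.723 and 1.25 FPKM (1.73-fold higher, 1.30 to 2.32). The ST3GAL sum was 20.03 FPKM in the scrambled and 32.0 in the shSIK2 library (1.60-fold higher, 1.51 to 1.69). ST3GAL5, the GM3 ganglioside synthase, remained below 1 FPKM, with 16 and 70 reads.

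ST6GAL1, the enzyme that places sialic acid on galactose in the other linkage common on N-glycans, stood lower. Its values were 5.59 and 4.12 FPKM (1.36-fold lower, 1.22 to 1.5). ST6GAL2 had no reads in either library. Against the ST3GAL sum, ST6GAL1 thus lay on the opposite side of equality. Its log2 ratio of -0.43 was close to the median of -0.31 of its neighbouring genes. At or below that ratio lay 29.4% of measured protein-coding genes.

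ST6GALNAC enzymes add sialic acid to N-acetylgalactosamine of O-glycans and gangliosides, and all 4 measured ones were higher. However, ST6GALNAC3, ST6GALNAC5 and ST6GALNAC6 reached 1 FPKM only in the shSIK2 library, so the minimum fixed their direction. ST6GALNAC4, which adds a second sialic acid to sialylated core 1 O-glycans (ENSG00000136840, chromosome 9, 127907886 to 127917038), stood at 30.9 FPKM in the scrambled and 71.5 in the shSIK2 library. From 1395 and 3228 reads it was 2.31-fold higher (2.17 to 2.47), and it passed B4GALT1 and MGAT4B to become the most abundant member. ST6GALNAC3 stood at 0.966 and 1.83 FPKM (1.89-fold higher, 1.51 to 2.38). ST6GALNAC5, a ganglioside enzyme, had 19 and 87 reads (4.58-fold higher, 2.76 to 7.97), and ST6GALNAC6, another ganglioside enzyme, 41 and 108 (2.63-fold higher, 1.82 to 3.87). Both reached 1.19 FPKM in the shSIK2 library and stayed under 1 in the scrambled one. ST6GALNAC6 shares 47.0% of its exon length with a gene model on the same strand, so its count is uncertain. ST6GALNAC1, the sialyl-Tn synthase, and ST6GALNAC2 had no reads in either library.

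ST8SIA enzymes link sialic acids to each other. ST8SIA2, a polysialic acid synthase known from the developing nervous system (ENSG00000140557, chromosome 15, 92393828 to 92468728), stood at 3.65 FPKM in the scrambled and 13.3 in the shSIK2 library. Its 370 and 1352 reads gave a 3.65-fold higher value (3.25 to 4.11), and 2.41% of measured protein-coding genes had as high a ratio. ST8SIA1, the GD3 ganglioside synthase, stood at 1.57 and 0.99 FPKM (1.59-fold lower, 1.35 to 1.87). It reached 1 FPKM only in the scrambled library, so the minimum fixed its direction. ST8SIA4, the other polysialic acid synthase, had 46 and 28 reads, and ST8SIA6 11 and 15. ST8SIA2 thus made up 62.9% of the family's FPKM in the scrambled and 89.7% in the shSIK2 library.

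Among fucosyltransferases, FUT8, the sole enzyme of core fucose on N-glycans (ENSG00000033170, chromosome 14, 65410592 to 65744121), stood at 3.37 FPKM in the scrambled and 6.82 in the shSIK2 library. Its 387 and 784 reads gave a 2.03-fold higher value (1.79 to 2.29), just under 2-fold with the pseudocount and past it at equal totals. FUT10 stood at 2.46 and 2.73 FPKM and FUT11 at 4.41 and 4.45, the latter leading the family in the scrambled library and FUT8 in the shSIK2 library. FUT1 and FUT2 make the H antigen and lie 42.1 kb apart on chromosome 19. Both were below 1 FPKM and differed in direction: FUT1 had 62 and 9 reads (6.89-fold lower, 3.40 to 15.8) and FUT2 4 and 19 (4.75-fold higher, 1.58 to 19.2). FUT4, a Lewis X enzyme, had 41 and 17 reads. The other Lewis enzymes FUT3, FUT5, FUT6, FUT7 and FUT9 had 0 to 2 reads, and FUT3, FUT5 and FUT6 are near-identical copies whose reads can be divided among them. FUT5 also shares 82.5% of its exon length with another gene on the same strand.

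The 44 members below 1 FPKM included 12 without a read in either library: GALNT3, GALNT8, GALNT17, MGAT4D, B3GNT6, ST6GAL2, ST6GALNAC1, ST6GALNAC2, ST8SIA3, FUT6, FUT7 and FUT9. By counting error alone, a count of 0 leaves room for an expected count of up to 3 reads in each library. Overlap adds to this: GALNT8, ST6GALNAC2 and FUT7 share 62.7%, 57.2% and 58.7% of their exon length with other genes. Their counts of 0 are uncertain where the counting set such reads aside. GALNT18 had 36 reads in the scrambled and 7 in the shSIK2 library, GALNT9 35 and 17, GALNT12 18 and 26, and GALNT5 7 and 0. B3GALT1 had 51 and 63 reads, ST3GAL3 51 and 48, MGAT4C 64 and 53, GCNT7 16 and 10 and B3GNT4 9 and 16. GALNT4, GALNT13, GALNT15, GCNT3, GCNT4, B3GNT3, B3GNT7, B3GNT8, B3GALT2 and ST8SIA5 had 0 to 4 reads, and GALNT4 shares 93.2% of its exon length with a readthrough gene. Enzymes of mucin-secreting epithelium (GALNT3, B3GNT6, ST6GALNAC1 and GCNT3) were thus at or near 0 in both libraries, and the 5 markers of that epithelium summed to 0.0658 and 0.0507 FPKM.

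Of 11 families, 8 had the same leading member by FPKM in both libraries. The exceptions were GALNT (GALNT10, then GALNT2), B3GNT (B3GNT2, then B3GNT9) and FUT (FUT11, then FUT8). By reads, which weigh longer transcripts more, 7 families kept theirs: FUT8 led FUT in both libraries, while ST3GAL1 and ST8SIA1 led their families in the scrambled library and ST3GAL4 and ST8SIA2 in the other. In order of level, B4GALT1, MGAT4B and ST6GALNAC4 were the 3 most abundant members of the scrambled library, and ST6GALNAC4, B4GALT1 and MGAT4B those of the shSIK2 library. ST8SIA2 ranked 24 in the scrambled and 10 in the shSIK2 library among the 40, GALNT7 ranked 17 and 37 and B4GALT6 29 and 19.

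Members with higher ratios were somewhat richer in GC, as were genes in general. Across genes, which are not independent replicates and share both libraries, the log2 ratio and GC content had a Spearman rho of 0.28 over the 40 measured members and 0.34 over 10663 protein-coding genes. The 9 members 2-fold higher had a median GC content of 56.1% (37.3% to 64.1%), and the 3 lower ones 45.4% (39.8% to 49.3%). After medians in bins of GC content and exon length were subtracted, 11 members were 2-fold higher and 2 lower, beside 8.52% and 4.45% of protein-coding genes. ST6GALNAC4 then had a log2 ratio of 0.69 in place of 1.21, while FUT8, ST3GAL6 and ST6GALNAC3 passed 2-fold. Of 11 measured sialyltransferases 6 were past 2-fold higher with this subtraction and 5 at equal totals.

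**Figure D4:**
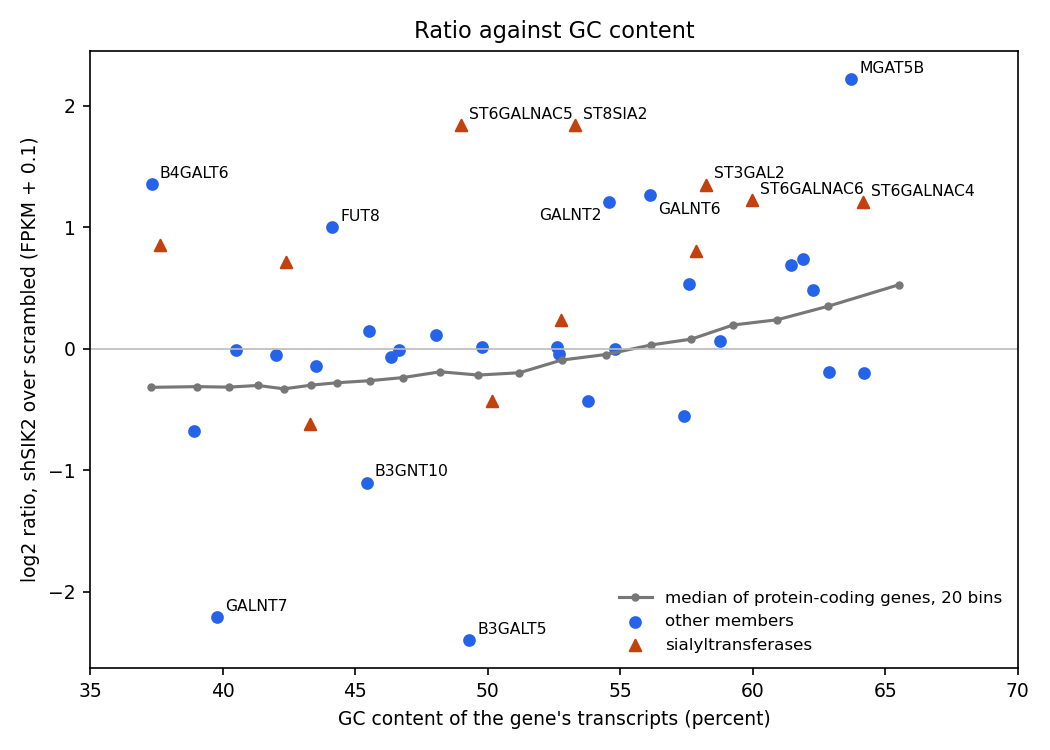
Log2 ratio of shSIK2 over scrambled (vertical axis) against GC content of the gene's transcripts (percent) for measured members, with the median of protein-coding genes in 20 bins as a grey line. All 9 members past 2-fold higher lie above that line and the 3 past 2-fold lower lie below it. The line runs from -0.33 to 0.53, so the selection at 2-fold fixed these sides.

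The 9 members 2-fold higher lay on 7 chromosomes, and 8 of them were also 2-fold above the median of the 10 measured protein-coding genes on each side. For GALNT2, GALNT6, B4GALT6, ST3GAL2 and ST6GALNAC5 the neighbours' median was below 0, so the selection at 2-fold fixed this outcome. The exception was ST6GALNAC4, whose neighbours had a median of 0.27. GALNT2 had a log2 ratio of 1.21 among neighbours with a median of -0.70. GALNT7 and B3GALT5 were 2-fold below their neighbours as well, and B3GNT10 was not. ST6GALNAC4 and ST6GALNAC6 lie 2.48 kb apart on chromosome 9 and both were 2-fold higher. ST6GALNAC3 and ST6GALNAC5 lie 233 kb apart on chromosome 1, with log2 ratios of 0.85 and 1.84. By contrast, MGAT5B on chromosome 17 lies 225 kb from ST6GALNAC1, which had no reads.

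**Figure D5:**
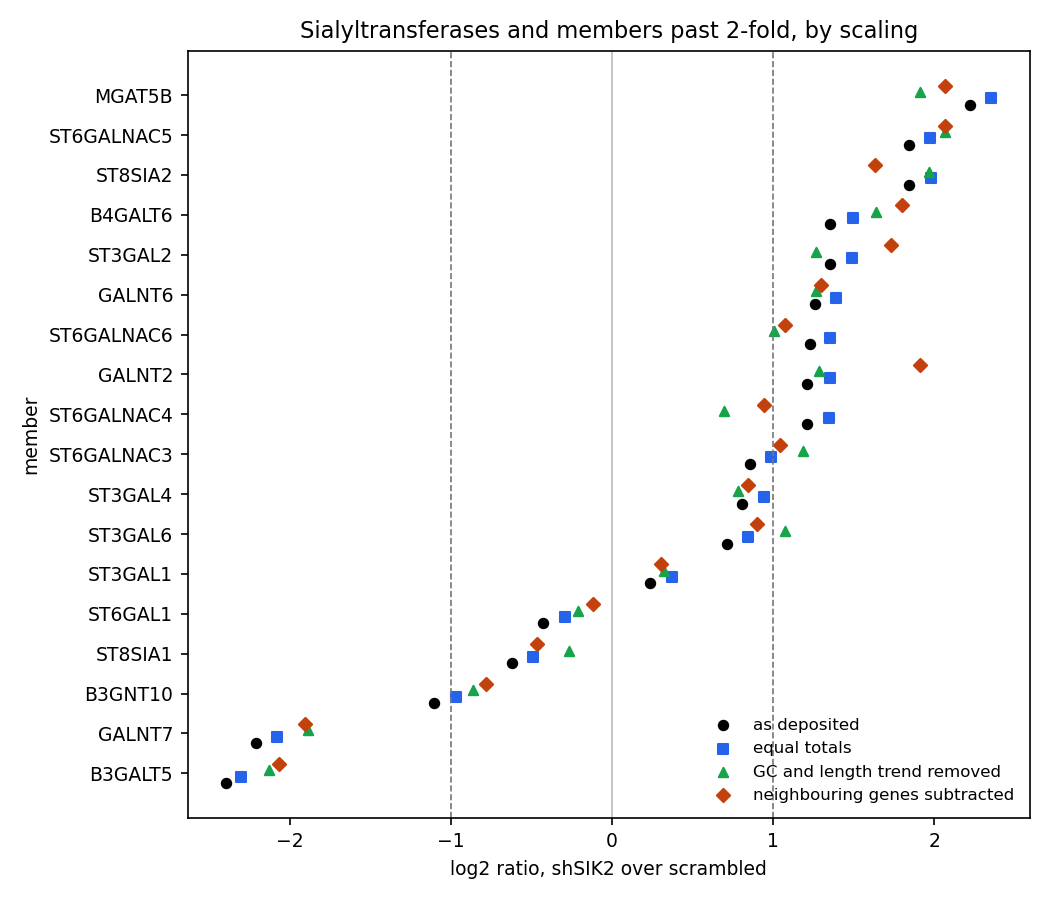
Log2 ratio (horizontal axis) of the measured sialyltransferases and of the other members past 2-fold, as deposited, at equal totals, with the trend in GC and length taken out, and with the median of neighbouring genes subtracted; dashed lines mark 2-fold. No plotted member changes side of 0, and ST6GALNAC4 and B3GNT10 move to within 2-fold in some settings.

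Of 71 genes in 11 pathway lists of sugar supply and related steps, 59 were measured. Among these, 7 were past 2-fold higher, 4 past 2-fold lower, and the median log2 ratio was 0.16. Over all measured protein-coding genes 8.41% were past 2-fold higher and 6.64% past 2-fold lower, so both shares of the pathway genes lay near the background. In the list of UDP-GlcNAc supply and transport 3 of 5 measured genes were 2-fold lower and 0 higher, where 6.64% of measured protein-coding genes were 2-fold lower. UAP1, which makes UDP-GlcNAc itself, stood at 499.9 and 193.9 FPKM (2.58-fold lower, 2.52 to 2.63). GNPNAT1 and GFPT1, earlier enzymes of the same path, were at 31.1 and 30.5 FPKM in the scrambled library and 10.97 and 14.98 in the shSIK2 library. The other measured genes of the list went the other way. GFPT2, a relative of GFPT1, was at 15.7 and 27.4 FPKM (1.75-fold higher, 1.63 to 1.87), and PGM3 at 5.97 and 6.70. At equal totals, where 4.43% of protein-coding genes were 2-fold lower, UAP1 and GNPNAT1 remained past 2-fold and GFPT1 did not, and the same held with the GC and length trend subtracted.

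In the supply of sialic acid, 0 of 5 genes were past 2-fold. GNE, the first and rate-limiting enzyme, stood at 31.1 and 16.02 FPKM (1.94-fold lower, 1.83 to 2.06), and NANP at 21.4 and 11.5 FPKM, whereas CMAS, which activates sialic acid, stood at 15.0 and 19.6. The sialidases NEU1 and NEU3 were at 14.1 and 1.52 FPKM in the scrambled library and 20.7 and 1.98 in the shSIK2 library. So the sialyltransferase sum and the first step of sialic acid synthesis lay on opposite sides of equality. For UDP-galactose, 2 of 5 genes were 2-fold higher and 0 lower, beside 8.41% higher among protein-coding genes: GALK1 from 3.26 to 7.11 FPKM and GALT from 1.52 to 3.34, with the transporter SLC35A2 at 4.99 and 7.28. With the GC and length trend subtracted GALK1 had a log2 ratio of 0.59 in place of 1.10, which left GALT as the 1 gene past 2-fold. For GDP-fucose 0 of 6 were past 2-fold, with SLC35C1 at 2.28 and 3.71 FPKM, GMDS at 3.10 and 4.71 and FPGT at 6.34 and 4.38.

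Among related transferases outside the name rule, 3 of 8 measured were 2-fold higher and 0 lower, beside 8.41% higher among protein-coding genes. B4GAT1, an enzyme of dystroglycan glycans, stood at 7.40 and 23.1 FPKM (3.12-fold higher, 2.71 to 3.60). B4GALNT1, the GM2 and GD2 synthase of gangliosides, stood at 2.96 and 7.37, and B4GALNT4 at 5.48 and 12.3. B4GALNT4 was no longer past 2-fold with the GC and length trend subtracted (log2 ratio 0.58 in place of 1.16). Core 1 synthase C1GALT1 was at 15.4 and 9.17 FPKM (1.68-fold lower, 1.57 to 1.81) and its chaperone C1GALT1C1 at 29.9 and 24.8. Of 6 trimming mannosidases MAN1C1 was 2-fold higher, from 0.859 to 3.68 FPKM, and MAN1A1 and MAN1B1 stood at 4.15 and 14.4 in the scrambled and 6.95 and 21.97 in the shSIK2 library. MAN1C1 reached 1 FPKM only in the shSIK2 library, so the minimum fixed its direction. With the GC and length trend subtracted MAN1A1 also passed 2-fold (log2 ratio 1.03). Of 12 Golgi tether genes COG5 was 2-fold lower, from 11.4 to 4.68 FPKM, with COG2 at 10.5 and 5.39 and COG6 at 3.60 and 5.06. The 1 of 12 lies near the 6.64% of all protein-coding genes, and COG5 had a log2 ratio of -0.96, short of 2-fold, with the GC and length trend subtracted. None of 3 measured galectins was past 2-fold (LGALS1 at 259.99 and 400.1 FPKM, LGALS3 at 54.9 and 45.5, LGALS8 at 1.99 and 2.04). Of 5 measured mucin-like carriers CD24 was 2-fold higher, from 51.8 to 162.8 FPKM, with MUC1 at 8.78 and 6.68 and CD164 at 38.3 and 29.9.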

How the data were processed

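RNA sequencing of 2 BT549 cultures, 1 scrambled and 1 shSIK2, was grouped by sample title. The submitters' processing notes list HISAT2 2.0.5 and hg18. How reads were counted, with which strand setting, annotation and FPKM formula, is not stated in the sources used here. Per the file headers, each deposited table holds FPKM for 58735 Ensembl genes. All matched GENCODE release 29 on GRCh38, which gave the symbols and coordinates printed; it differs from the build in the notes. FPKM times exon length gave whole multiples of 58.3 in both tables for 100% of values above 0 (tolerance 0.001), taken as reads (18019225 and 16347399). A count test was not run, with 1 library per group.

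Log2 ratios used a pseudocount of 0.1 and a minimum of 1 FPKM in the higher library. Families, members and lists were chosen with earlier results of these data known. All measured members were named, with up to 3 genes per pathway list by absolute log2 ratio and all 5 measured genes of UDP-GlcNAc supply. Members below the minimum were named with reads, and other examples were chosen after their values were seen. Neighbours were 10 genes on each side, and trends were removed in 20 bins of GC content and of length. Intervals of family sums use a normal approximation of counting error. On simulated data (12018 genes, shSIK2 against scrambled, no error but counting), the 2-fold rule called 98.0% of genes changed 4-fold, 6.0% of those changed 1.5-fold and 1.06% of unchanged genes. Python 3.11.15 was used with pandas 2.3.3, numpy 2.4.6, matplotlib 3.10.9 and scipy 1.17.1.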

Additional observations from a re-analysis of the deposited data

How the results depend on the processing

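No paired analysis was possible because each group holds 1 library. The counts of 9 higher and 3 lower members, and of 5 higher sialyltransferases, depended mainly on how low values were treated. With a pseudocount of 1, 5 members and 2 sialyltransferases were at least 2-fold higher. With a minimum of 5 FPKM, 4 of 23 members and 2 of 5 sialyltransferases were. With a minimum on the mean of both libraries, chosen after seeing the data, 5 of 34 members and 3 of 8 sialyltransferases were. Of protein-coding genes filtered the same way 7.22% were. With a minimum of 0.5 FPKM, or none, 5 members were at least 2-fold lower, FUT1 and GALNT18 being added. No sialyltransferase was 2-fold lower in any setting run. Equal totals, a pseudocount of 0.01, the GC and length trend removed, neighbouring genes subtracted, or members sharing at least 10% of their exon length left out (the last 2 chosen after seeing the data) moved these counts by at most 1.5 times. Apart from equal totals, the removed trend and the minimum on the mean, no alternative setting had its share over all protein-coding genes computed. Counts in the other settings therefore cannot be set against a background. None of the 12 members past 2-fold changed sign, which equal totals, the pseudocount and leaving members out could not bring about. The median of measured members kept its sign throughout, from 0.01 to 0.32. With shares taken from reads in place of FPKM, the scrambled library's shares of 10 of 11 families' leading members moved beyond counting error. At equal totals the summed FPKM ratios of 9 of 11 families moved beyond counting error. The depth of 1 library per group leaves all differences without a replicate check, and members with few reads have wide intervals.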
